A study of Mus musculus with 12 samples.

Results

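Accessible chromatin was described at 9 genes for transcription factors that mark where a fat depot comes from: Zic1, Zic4, Lhx8, Tbx1, Tbx15, Tbx18, Shox2, En1 and Pax3. Every ATAC-seq peak that the deposited peak tables assign to one of these gene symbols was taken. This gave 40 of the 58558 peaks in brown fat and 28 of the 39558 peaks in inguinal fat. All 9 genes had a peak in brown fat, where 17116 genes had one, and 8 of the 9 had a peak in inguinal fat, where 15963 genes had one. In both tissues, peaks and reads were first counted in control mice and the knockout was then compared with its control.

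Fat depots arise from different embryonic progenitors, and their cells keep a record of that origin in which patterning factors they express. Interscapular brown fat derives from somitic progenitors that pass through a state with Pax3 and En1, and mature brown fat is commonly told from other fat by the zinc finger factors Zic1 and Zic4 and the LIM homeobox factor Lhx8. Tbx1 is used as a marker of beige adipocytes in cold-exposed subcutaneous fat, while Tbx15, Shox2 and En1 are among the developmental genes that separate subcutaneous from visceral fat, and Tbx18 is best known from the epicardium and from mural cells of vessels.

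ATAC-seq counts the insertions of a transposase into open DNA, and the samples were whole tissues of C57BL/6 mice. Flox mice carried floxed alleles of BAF60a (Smarcd1), a subunit of the SWI/SNF chromatin remodelling complex, and in AKO mice Adiponectin-Cre deleted the gene in adipocytes but not in the other cells of the tissue. Brown fat (BAT) came from 3 flox and 3 AKO mice, 1 mouse a sample, with an age that the sources used here do not give for these mice. The methods of the study do not state the housing temperature of these brown fat mice either. Inguinal white fat (iWAT) came from mice of 6 to 8 months kept at 10 °C for 7 days, and pads of 6 mice a genotype were pooled and divided into 3 aliquots, so that p-values in iWAT measure technical spread only. Samples are compared in normalized reads, meaning read numbers that the authors scaled by 1 size factor for each library. Levels are given in RPM, the reads of a peak in every 1000000 reads in peaks of the library, and per kb of peak where genes are compared.

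Reads in peaks ranged from 6336670 to 27500738 a sample in BAT and from 4066720 to 6691161 in iWAT. AKO replicate 2 of BAT stood apart with the fewest reads of its tissue and with 4.92% of its reads in the weakest peaks (the 2 lowest of 10 equal bins of mean signal), against 2.72% to 3.67% in the other 5 samples. At the targeted gene, a BAT peak in intron 4 of Smarcd1 held 136, 201 and 185 normalized reads in flox and 23.7, 57.9 and 26.9 in AKO samples, while the iWAT table lists only the peak at the start site, which the genotypes share. All 10 genes of a brown adipocyte list had peaks in both tissues, with a summed flox level of 2573 ± 127 RPM over 92 peaks in BAT and 635 ± 12.2 RPM over 33 peaks in iWAT (SD, n = 3). In BAT, the sum of that list was 31924 to 37157 normalized reads in flox and 22642 to 25479 in AKO samples, whose ranges do not overlap, and a list of general adipocyte genes was at 19561 to 21174 and 13389 to 18239. Among lists for other cell types in BAT, Schwann cells and neurons were at 486 to 525 in flox and 533 to 552 in AKO, epithelium at 733 to 784 and 696 to 730, and lists for muscle, fibroblasts, endothelium, lymphocytes and mesothelium overlapped between the genotypes. In iWAT, sums did not overlap for brown adipocytes (2937 to 3050 in flox, 3107 to 3317 in AKO), mesothelium (397 to 471 and 514 to 533, from 1 of 3 genes), endothelium (766 to 855 and 671 to 740) and lymphocytes (190 to 196 and 137 to 171, from 2 of 4 genes). The part of any of these in the results was not tested. In bulk tissue, fewer cells of a type and less accessibility in each of its cells cannot be told apart.

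Because the results turn on them, 8 sequences are shown. The first 4 are promoters from RefSeq in the build GRCm38.p6 (the same assembly as mm10), each from 250 to 71 bases before the start site and read in the direction of the gene, and 7 of the 9 genes matched an entry of that table. Those of Zic1 (chr9:91365839-91366018, minus strand), Tbx18 (chr9:87731331-87731510, minus strand) and En1 (chr1:120602237-120602416, plus strand) lie in or reach into a peak, and that of Zic4 (chr9:91368722-91368901, plus strand) lies in none. Capitals mark 5 motifs searched on both strands. The GC box is GGGCGG. The CCAAT box is spelled as named, and reads ATTGG on the other strand. An E-box was searched as CAGCTG. For Zic proteins the letters were CCTGCTG. For C/EBP proteins they were TTGCNNAA. Hits of different motifs were counted separately and may overlap.
Zic1 promoter: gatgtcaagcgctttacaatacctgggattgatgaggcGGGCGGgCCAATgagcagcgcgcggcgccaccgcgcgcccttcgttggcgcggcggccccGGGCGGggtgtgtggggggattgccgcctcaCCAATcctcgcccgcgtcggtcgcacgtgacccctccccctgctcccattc
Zic4 promoter: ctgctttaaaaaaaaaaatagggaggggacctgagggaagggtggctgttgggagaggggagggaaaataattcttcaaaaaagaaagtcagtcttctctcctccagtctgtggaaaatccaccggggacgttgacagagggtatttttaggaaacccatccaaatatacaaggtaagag
Tbx18 promoter: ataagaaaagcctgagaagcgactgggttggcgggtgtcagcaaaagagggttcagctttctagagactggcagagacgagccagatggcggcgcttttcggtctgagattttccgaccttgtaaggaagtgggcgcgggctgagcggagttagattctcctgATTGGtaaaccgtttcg
En1 promoter: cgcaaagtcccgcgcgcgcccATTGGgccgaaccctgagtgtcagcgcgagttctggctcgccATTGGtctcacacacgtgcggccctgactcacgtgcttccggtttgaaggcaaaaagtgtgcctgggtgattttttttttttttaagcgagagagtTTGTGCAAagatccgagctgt
The Zic1 promoter held 2 GC boxes and 2 CCAAT boxes, the En1 promoter 2 CCAAT boxes and 1 C/EBP core, the Tbx18 promoter 1 CCAAT box, and the Zic4 promoter none of the 5 motifs. Among the same stretch of 32851 RefSeq promoters, 21.1% held a GC box, 25% a CCAAT box and 7.42% a C/EBP core. CpG dinucleotides were as frequent as base composition predicts in Zic1 (observed over expected 1.03), Tbx18 (1.02) and En1 (1.10), and rare in Zic4 (0.25), where the median of all promoters was 0.35.

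The other 4 sequences are distal or intronic sites, read from the plus strand of the same build. They are the iWAT peak 9.58 kb upstream of Tbx18 (chr9:87740735-87740942), which overlaps the end of a wider BAT peak by 205 of its 208 bases, the middle of the BAT peak in intron 6 of Lhx8 (chr3:154319637-154319936), the middle of the BAT peak in intron 3 of Zic4 (chr9:91381516-91381815) and the BAT peak 156 kb downstream of the En1 start (chr1:120758256-120758445), which lies inside a wider iWAT peak.
Tbx18 upstream site: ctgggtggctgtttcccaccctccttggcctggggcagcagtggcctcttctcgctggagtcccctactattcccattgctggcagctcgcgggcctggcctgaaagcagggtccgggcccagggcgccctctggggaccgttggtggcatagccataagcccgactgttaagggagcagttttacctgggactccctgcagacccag
Lhx8 intron site: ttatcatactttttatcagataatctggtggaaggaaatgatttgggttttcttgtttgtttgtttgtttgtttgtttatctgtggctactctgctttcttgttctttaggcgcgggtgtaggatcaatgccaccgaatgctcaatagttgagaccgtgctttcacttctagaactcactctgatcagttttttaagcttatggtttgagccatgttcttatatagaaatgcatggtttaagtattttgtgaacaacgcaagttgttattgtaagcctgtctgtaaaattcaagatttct
Zic4 intron site: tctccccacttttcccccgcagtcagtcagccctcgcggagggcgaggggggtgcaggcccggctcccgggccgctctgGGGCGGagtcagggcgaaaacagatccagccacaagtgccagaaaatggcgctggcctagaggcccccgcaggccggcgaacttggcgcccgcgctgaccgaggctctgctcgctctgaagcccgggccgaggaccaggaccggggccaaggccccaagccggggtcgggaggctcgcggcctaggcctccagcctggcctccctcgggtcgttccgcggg
En1 distal site: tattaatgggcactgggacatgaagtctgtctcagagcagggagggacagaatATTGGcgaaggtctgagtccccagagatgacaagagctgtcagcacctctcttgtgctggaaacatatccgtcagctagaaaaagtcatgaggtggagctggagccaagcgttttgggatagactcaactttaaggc
One GC box was found in the Zic4 intron site, 1 CCAAT box in the En1 distal site and none of the 5 motifs in the Tbx18 and Lhx8 sites. GC content was 73.0% at the Zic4 site, 64.4% at the Tbx18 site, 49.5% at the En1 site and 36.0% at the Lhx8 site. In windows of 300 bp at the centre of each peak, CCTGCTG was found in 10 of 40 member peaks in BAT (25%, against 14.0% of all BAT peaks) and in 7 of 28 in iWAT (25%, against 14.6%). The E-box was found in 9 of 40 member peaks in BAT (22.5%, against 22.4% of all) and in 12 of 28 in iWAT (42.9%, against 23.7%). The CCAAT box had shares of 40% in BAT and 39.3% in iWAT, where all peaks had 31.8% and 30.0%. For the GC box the shares were 27.5% in BAT and 32.1% in iWAT, against 20.7% and 28.9% of all peaks. For the C/EBP core they were 15.0% and 21.4%, against 15.1% and 14.0%.

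Zic1 and Zic4 lie head to head on chromosome 9 with 3202 bases between their principal start sites, and in flox BAT this neighbourhood was open at many places. Across 31.5 kb (91350556 to 91382023), BAT had 6 peaks, 4 assigned to Zic1 and 2 to Zic4, at flox levels of 5.19 to 30.3 RPM, and iWAT had none. The nearest iWAT peaks were 122 kb away on the Zic4 side and 264 kb away on the Zic1 side. The peak over the Zic1 start was 1857 bp wide and held 455, 409 and 375 normalized reads in flox samples, the highest flox mean of the Zic1 peaks, at percentile 83.9 of all BAT peaks. Of all BAT peaks in the same of 10 equal bins of flox signal that lie within 1000 bp of a start site, 2817 of 2830 (99.5%) overlapped an iWAT peak, and the Zic1 start peak was one of the few that did not. A second wide peak, 2515 bp, lay 14.0 kb downstream of the start with 461, 316 and 407 normalized reads in flox, and smaller ones lay at 9.98 kb and in intron 2.

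At Zic4, no peak covered the principal start. The BAT peak nearest an annotated start covered the first exon of a shorter transcript, an annotated start 9.86 kb downstream of the principal start and held 149, 134 and 208 normalized reads in flox samples, and the peak in intron 3 held 326, 239 and 283. Neither overlapped an iWAT peak. What Zic1 and Zic4 shared between the tissues lay far away. A site 475 kb downstream of Zic1 was at 2.91 RPM in flox BAT and 10.02 RPM in flox iWAT, and a site 126 kb downstream of Zic4 was at 6.08 and 19.98 RPM. These distant peaks are tied to the genes by the annotation of the tables only, and another iWAT peak, 279 kb downstream of Zic1 with 32.1, 50.03 and 61.1 normalized reads in flox, was listed in iWAT alone.

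**Figure D1:**
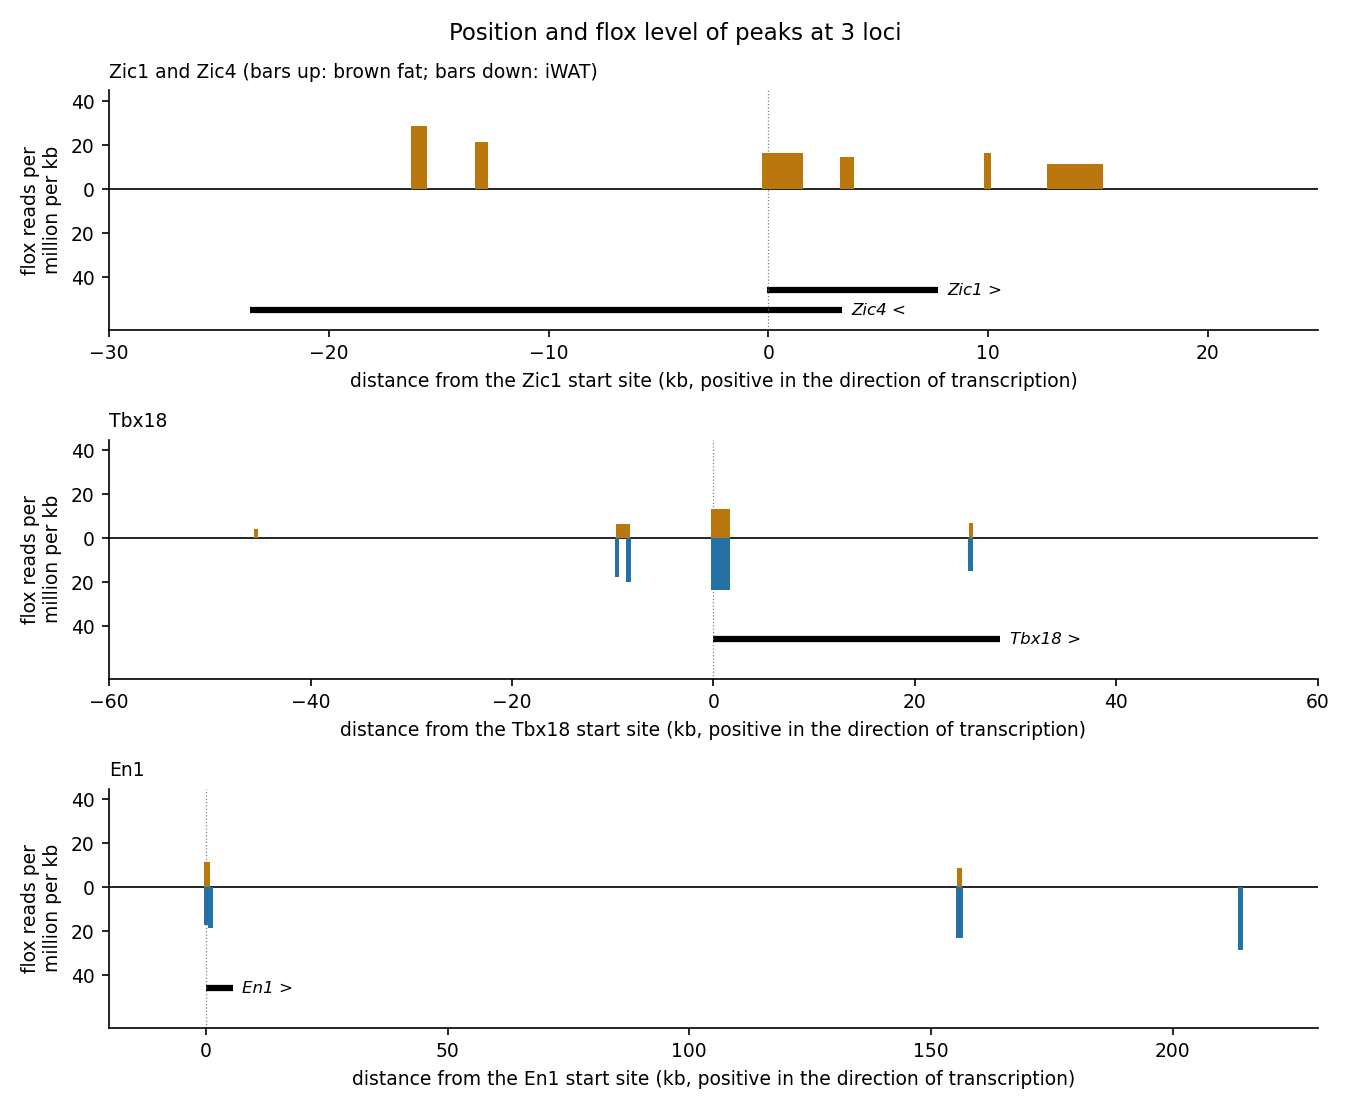
Peaks at the Zic1 and Zic4, Tbx18 and En1 loci by distance from the start site in kb, with flox levels in RPM per kb as bars, up for brown fat and down for iWAT, and gene bodies as black lines. The 6 brown fat peaks at Zic1 and Zic4 have no iWAT bar below them, while the start sites of Tbx18 and En1 have bars in both tissues.

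Lhx8, another brown fat marker, had 5 peaks in BAT and 3 in iWAT, and 2 sites were common to both. A peak in intron 6, 10.3 kb into the gene and 1363 bp wide, held 305, 262 and 263 normalized reads in flox BAT, percentile 74.5, with no iWAT peak on it. Among BAT peaks of that bin of signal away from start sites, 72.7% overlapped an iWAT peak. The GC-rich exon 2 was open in both tissues, at 11.5 RPM in flox BAT and 7.31 RPM in flox iWAT, as was a site 32.4 kb downstream of the start at 7.36 and 8.64 RPM. An iWAT peak of 25 bp at 127 kb, within an intron of the neighbouring Slc44a5, held 9.27, 4.45 and 5.16 normalized reads in flox and was among the weakest of the iWAT table, at percentile 0.43.

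Tbx1, the beige marker, had no peak within 1000 bp of an annotated start in either tissue. Its 3 iWAT peaks all overlapped BAT peaks. The strongest in both tissues lay 13.8 kb upstream, with 322, 295 and 374 normalized reads in flox BAT (24.4 RPM) and 87.0, 113 and 128 in flox iWAT (23.2 RPM). The other common sites lay 12.5 kb downstream of the start and in intron 4 of the neighbouring Gnb1l. A BAT peak 6.75 kb upstream, 790 bp wide with 138, 192 and 256 normalized reads in flox, and a BAT peak in the GC-rich exon 7 were not matched by iWAT peaks.

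Tbx15, expressed in both brown and subcutaneous white fat, was open at its start in both tissues. The start peak held 253, 248 and 282 normalized reads in flox BAT (19.2 RPM over 1877 bp) and 187, 228 and 182 in flox iWAT (42.1 RPM over 1001 bp). It was the highest peak of the gene in each tissue, at percentile 73.2 in BAT and 83.0 in iWAT. Intron 1 had peaks in both tissues but not at the same places, at 36.6 and 47.6 kb in BAT and at 39.0 and 44.6 kb in iWAT. A site 205 kb downstream, past the end of the gene, was common at 8.59 and 8.47 RPM.

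Tbx18 had the most peaks of the 9 genes, 8 in each tissue, and shared the most, 6 of 8 in BAT and 7 of 8 in iWAT. Its start peak was the highest in iWAT, with 208, 229 and 213 normalized reads in flox (45.9 RPM over 1933 bp, percentile 84.8), and was at 25.8 RPM over 1917 bp in flox BAT, percentile 80.5. The upstream site whose sequence is shown was part of a BAT peak of 1395 bp at 9.26 RPM, where iWAT had a pair of narrow peaks at 7.03 and 3.68 RPM. The strongest Tbx18 peak seen in BAT alone lay 174 kb downstream, was 1645 bp wide and held 312, 341 and 396 normalized reads in flox.

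Shox2 and En1, both homeobox genes, were open at their starts in both tissues. The Shox2 start peak held 115, 120 and 113 normalized reads in flox BAT (8.54 RPM) and 96.2, 116 and 110 in flox iWAT (22.7 RPM), and a peak in intron 1 was common as well. At En1, the start peak was at 13.1 RPM in flox BAT and 15.1 RPM in flox iWAT. The BAT start peak also overlapped a weaker iWAT peak, at 7.54 RPM in flox. Of the 21 overlapping pairs, the widest gap in percentile between the tissues was at the En1 distal site shown above, which in flox iWAT was 1340 bp wide with 169, 115 and 156 normalized reads (30.9 RPM, percentile 75.2) and in flox BAT 190 bp wide with 19.9, 17.7 and 31.0 (1.69 RPM, percentile 3.01). These percentiles rank the RPM of whole peaks, not RPM per kb, so that the gap also moves with the width of the called peaks. Pax3, a factor of somite progenitors, had 1 peak in BAT, 884 bp wide, 20.1 kb upstream with a GC content of 73.8% and 83.6, 72.4 and 119 normalized reads in flox, and none in iWAT. It was at percentile 39.9 of all BAT peaks. Among BAT peaks of that bin of signal away from start sites, only 32.5% overlapped an iWAT peak, so that a peak without a match was the more common case.

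**Figure D2:**
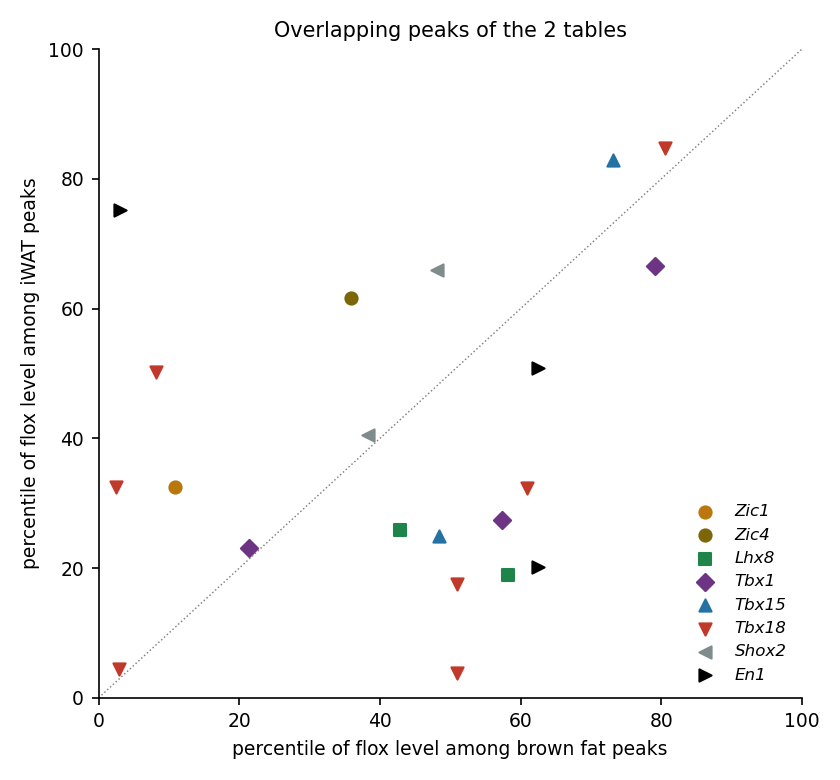
Peaks of the 9 genes that overlap between the tables, by the percentile of their flox level among all brown fat peaks (x axis) and among all iWAT peaks (y axis), 1 point for each overlapping pair, with a dotted line of equal percentile. The En1 distal site lies at percentile 3.01 in brown fat and 75.2 in iWAT, and the start peaks of Tbx15 and Tbx18 lie above 73 in both.

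Of the 40 BAT peaks, 19 overlapped an iWAT peak (47.5%, against 53.8% of all BAT peaks), and of the 28 iWAT peaks 21 overlapped a BAT peak (75.0%, against 80.5%). The middle of the peak lay within 1000 bp of an annotated start in 7 BAT peaks (17.5%, against 21.7% of all) and 6 iWAT peaks (21.4%, against 30.4%). Member peaks were of modest signal, with a median percentile of 39.1 in BAT and 30.8 in iWAT. The 7 iWAT peaks with no BAT peak on them were at 1.33 to 10.1 RPM in flox, and the 21 BAT peaks with no iWAT peak were at 0.50 to 30.3 RPM.

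Per kb of peak, the order in flox BAT was Tbx1 (21.9 ± 3.46 RPM per kb), Zic4 (18.9 ± 4.03), Shox2 (16.3 ± 0.79), Lhx8 (16.2 ± 1.08), Zic1 (13.9 ± 1.08), Tbx18 (11.7 ± 2.56), Tbx15 (11.4 ± 1.24), En1 (11.3 ± 1.54) and Pax3 (7.67 ± 2.28; SD, n = 3). Of neighbours in this order, only Lhx8 and Zic1 had flox samples that did not overlap, with 15.1 as the lowest Lhx8 value and 14.9 as the highest Zic1 value. Compared within each flox library, Tbx1 was also always above Zic4 and En1 always above Pax3. In flox iWAT the order was Tbx15 (38.9 ± 4.42), Tbx1 (38.7 ± 4.89), Shox2 (37.3 ± 6.79), Zic1 (27.4 ± 6.25), Lhx8 (26.4 ± 2.56), En1 (21.4 ± 2.36), Zic4 (21.2 ± 5.37) and Tbx18 (20.2 ± 2.06), and every pair of neighbours overlapped. Within each flox aliquot, Shox2 was above Zic1 and Lhx8 above En1. Levels are set side by side across the tissues only as a description, since the tables were called and normalized separately. Pooling and read depth also differ between the tissues, and cold acclimation is known for iWAT only. Their part cannot be told apart from that of the depot.

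**Figure D3:**
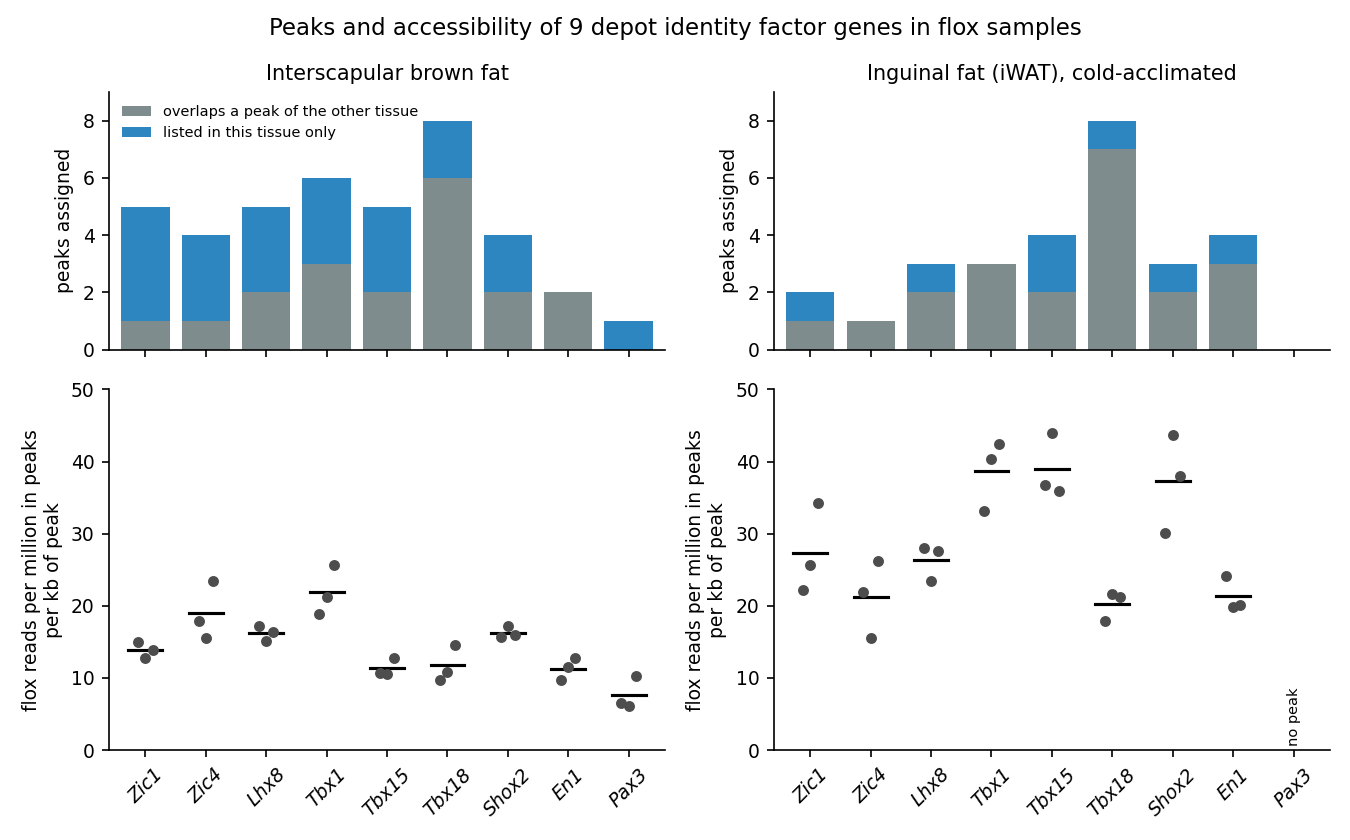
Upper panels: number of peaks assigned to each gene, split by overlap with a peak of the other tissue. Lower panels: flox level in RPM per kb of peak, with a point for each of 3 samples and a line at the mean. Zic1 and Zic4 have 5 and 4 peaks in brown fat with 1 shared each, and Pax3 has no iWAT peak.

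Summed over all peaks of a gene, the log2 ratio of flox RPM in BAT over iWAT was highest for Zic1 at 1.93, followed by Lhx8 (1.49), Zic4 (0.98) and Tbx1 (0.61). It was negative for Tbx18 (-0.32), Shox2 (-0.66), Tbx15 (-0.94) and En1 (-2.10). Among 15164 genes with peaks in both tissues, these values lay between percentile 97.5 for Zic1 and 2.90 for En1. This sum moves with how many peaks were called: Zic1 peaks covered 5529 bp in BAT and 736 bp in iWAT, and those of En1 1312 and 2971 bp. The genes with the nearest ratio and at least as many peaks were Gm29811, 4930488L21Rik and 1700104L18Rik for Zic1, at 1.92 to 1.93, and Ralyl, Gm20597 and Pola2 for En1, at -2.10 to -2.09.

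The knockout was compared with its control within each tissue, by limma on log2(normalized reads + 1) over all peaks of the table with a Benjamini-Hochberg adjusted p under 0.1 as the call. In BAT the score on the first principal component (PC1) was a covariate, as in the study. The study itself tested with DESeq2 and reported BAT peaks changed in both directions. The mean PC1 score was -41.8 ± 56.4 in flox and 41.8 ± 61.6 in AKO samples (SD, n = 3), so that it is in part confounded with genotype. No member peak was called in BAT, as was none of all 58558 peaks (0.0%). DESeq2 and edgeR on the recovered reads called none of the 40 either, where DESeq2 called 0.082% of all peaks as higher and 0.22% as lower and edgeR called 0.143%. By unadjusted limma p under 0.05, 4 of the 40 were higher and 2 lower in AKO, where 3.46% and 5.59% of all peaks were. Unadjusted p under 0.05 was reached by 3 member peaks in DESeq2, where 5.99% of all peaks reached it, and by 3 in edgeR, where 9.67% did. The split in limma turned on the model: 8 member peaks were higher and 1 lower without the PC1 covariate (against 7.57% and 4.37% of all peaks), and 0 higher and 3 lower with a replicate block (against 3.61% and 6.17%). The median log2 fold change was -0.03, beside 0.01 over all peaks, and 21 of the 40 were negative, where 49.1% of all peaks were. Without the covariate the median was 0.08, beside -0.01 over all peaks. In 5 member peaks every AKO sample lay above every flox sample and in 4 every AKO sample lay below (12.5% and 10%, against 8.77% and 8.84% of all peaks).

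**Figure D4:**
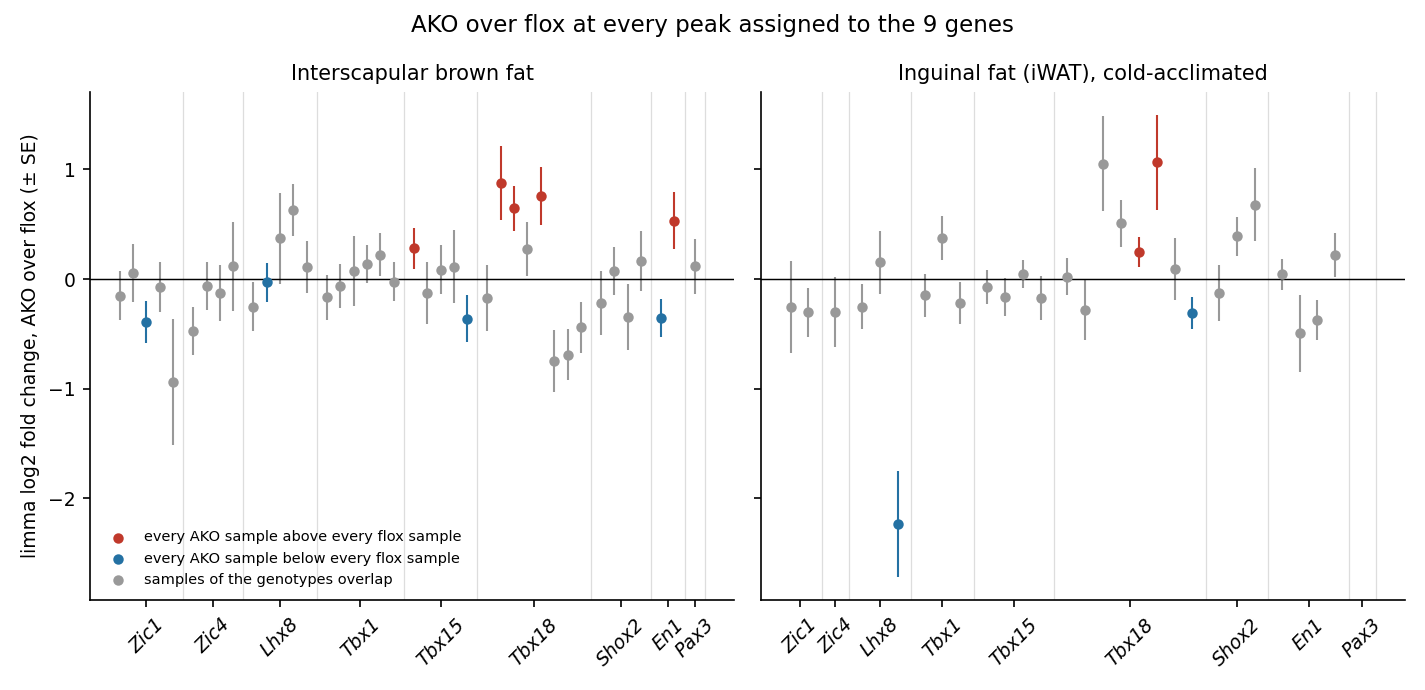
limma log2 fold change of AKO over flox with its SE (y axis) for each of the 40 brown fat and 28 iWAT peaks, grouped by gene and ordered within a gene by distance from the start site. Red points mark peaks where every AKO sample lies above every flox sample and blue points those where every one lies below, and 3 of the 5 such higher peaks in brown fat belong to Tbx18.

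At the brown markers Zic1, Zic4 and Lhx8, no BAT peak passed the test, and 2 of 14 parted the genotypes, where 17.6% of all BAT peaks did. The Zic1 start peak held 455, 409 and 375 normalized reads in flox and 343, 454 and 369 in AKO samples, which overlap, with a log2 fold change of -0.15 ± 0.22 (SE, limma adjusted p = 0.860). Of the Zic1 peaks, the narrow one 9.98 kb downstream parted the genotypes, with 67.9, 68.0 and 75.0 in flox and 60.8, 67.6 and 50.9 in AKO (-0.39 ± 0.19, limma adjusted p = 0.596). The weak site 475 kb downstream, which iWAT shares, had the lowest log2 fold change of the 40 member peaks, with 46.5, 39.2 and 33.6 in flox and 14.4, 71.5 and 29.7 in AKO samples, which overlap (-0.94 ± 0.58, limma adjusted p = 0.664, and -0.31 without the covariate). At Zic4, the peak in intron 3 held 326, 239 and 283 in flox and 260, 286 and 257 in AKO samples, and the peak at the downstream start 149, 134 and 208 against 135, 158 and 129 (-0.47 ± 0.22, limma adjusted p = 0.579). The Lhx8 intron 6 peak held 305, 262 and 263 in flox and 260, 203 and 243 in AKO samples, which do not overlap. Its fitted log2 fold change was -0.03 ± 0.18 with the PC1 covariate and -0.24 without. The Lhx8 site at 32.4 kb had the smallest p of that gene, with 121, 96.8 and 84.1 in flox and 159, 73.4 and 103 in AKO samples, which overlap (0.63 ± 0.24, limma adjusted p = 0.528, and 0.09 without the covariate).

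Among the other genes in BAT, the Tbx15 start peak held 253, 248 and 282 normalized reads in flox and 314, 429 and 362 in AKO samples, so that every AKO sample was higher (0.28 ± 0.19, limma adjusted p = 0.687), while the site 205 kb downstream held 130, 98.3 and 123 in flox and 87.6, 71.5 and 86.3 in AKO, every one lower (-0.36 ± 0.21, limma adjusted p = 0.652). Both En1 peaks parted the genotypes, in opposite directions. The start peak held 163, 184 and 188 in flox and 143, 151 and 149 in AKO (-0.36 ± 0.17, limma adjusted p = 0.596), and the weak distal site 19.9, 17.7 and 31.0 in flox and 34.02, 44.4 and 44.1 in AKO (0.53 ± 0.26, limma adjusted p = 0.596). Neither change passed the test. Tbx1 and Shox2 had no peak that parted the genotypes, with log2 fold changes of -0.16 to 0.22 over 6 Tbx1 peaks and -0.35 to 0.16 over 4 Shox2 peaks. The strongest Tbx1 peak held 322, 295 and 374 in flox and 310, 268 and 298 in AKO samples, which overlap (-0.16 ± 0.21). The Tbx1 peak with the smallest p, in intron 7 of Gnb1l, held 27.7, 35.5 and 54.3 in flox and 53.6, 81.1 and 61.4 in AKO (0.22 ± 0.20, and 0.76 without the covariate), which overlap as well. At the Shox2 start, 115, 120 and 113 in flox stood beside 105, 135 and 146 in AKO (0.08 ± 0.22). The Shox2 site 231 kb downstream, with the smallest p of the gene, held 78.9, 79.1 and 91.8 in flox and 89.7, 67.6 and 49.9 in AKO (-0.35 ± 0.30). The Pax3 peak held 83.6, 72.4 and 119 in flox and 101, 187 and 132 in AKO samples, which overlap (0.11 ± 0.25, and 0.59 without the covariate).

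Of the 6 member peaks with an unadjusted limma p under 0.05 in BAT, 5 were peaks of Tbx18 and 1 was the Lhx8 site at 32.4 kb. The 4 peaks from 45.4 kb upstream to the last exon had positive log2 fold changes. The upstream peak held 90.4, 102 and 181 normalized reads in flox and 239, 552 and 270 in AKO samples, every AKO sample above every flox sample, with 0.65 ± 0.20 (limma adjusted p = 0.482). A narrow peak over exon 8 held 19.9, 19.2 and 28.5 in flox and 42.3, 110 and 51.8 in AKO samples, again without overlap (0.76 ± 0.26, limma adjusted p = 0.506). The peak 45.4 kb upstream, 140 bp wide, held 5.23, 5.17 and 14.2 against 24.7, 40.6 and 17.3 (0.87 ± 0.34, limma adjusted p = 0.531). At the start, 334, 279 and 437 in flox stood beside 511, 703 and 431 in AKO samples, which overlap (0.27 ± 0.25, limma adjusted p = 0.770).

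Past the end of the gene, log2 fold changes were negative. The wide peak at 174 kb held 312, 341 and 396 normalized reads in flox and 279, 342 and 202 in AKO samples (-0.69 ± 0.23, limma adjusted p = 0.499), and the site at 113 kb 23.5, 25.1 and 55.6 against 23.7, 36.7 and 28.8 (-0.75 ± 0.29, limma adjusted p = 0.530). Both overlap between genotypes, and without the PC1 covariate their log2 fold changes were -0.37 and -0.13. AKO replicate 2 had the highest value of the 6 samples at each of the 4 peaks from 45.4 kb upstream to exon 8. The peaks at 45.4 kb and over exon 8 are in the lowest of 10 bins of flox signal, the upstream peak is at percentile 51.0 and the start peak at 80.5. AKO replicate 2 held a larger share of its reads in the weakest BAT peaks than the other samples. Fits without this sample are given below. Beyond them, its part in the Tbx18 values was not tested.

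Without the PC1 covariate, whose scores ran from -98.2 in flox replicate 1 to 112 in AKO replicate 2, the log2 fold change was 1.46 at the upstream peak and 1.45 at exon 8. DESeq2 without the covariate, added after the values were seen, called both, at 1.51 ± 0.32 (DESeq2 adjusted p = 0.00257) and 1.59 ± 0.43 (DESeq2 adjusted p = 0.0505), in a fit that called 0.512% of all BAT peaks as higher and 0.516% as lower. With AKO replicate 2 also left out, DESeq2 called the upstream peak (adjusted p = 0.0924) in a fit that called 0.029% of all peaks as higher and 0.272% as lower, and gave no adjusted p for exon 8, and limma gave 1.09 ± 0.31 (adjusted p = 0.553) and 1.05 ± 0.23. No limma or edgeR fit called a member peak, with or without the covariate. The flox and AKO samples at the upstream peak do not overlap with or without that library.

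**Figure D5:**
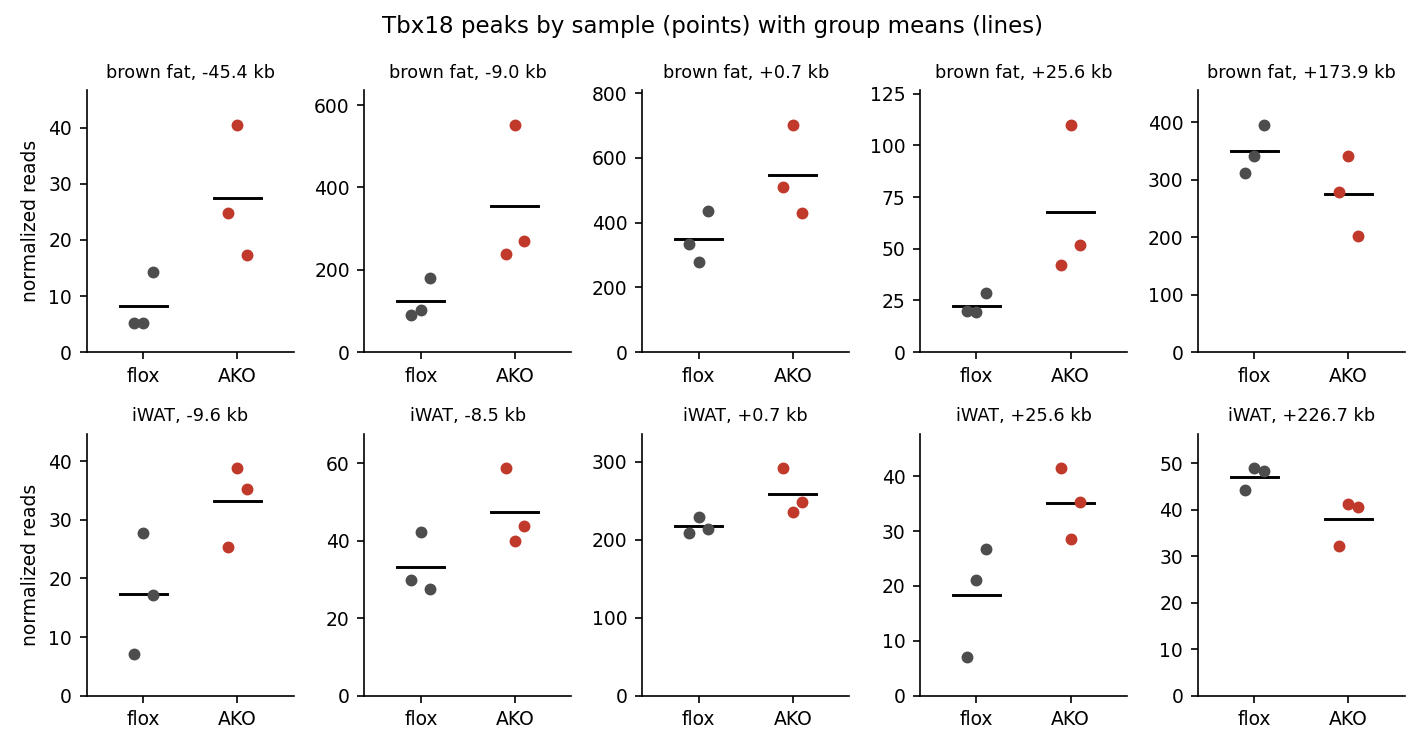
Normalized reads at 5 Tbx18 peaks of brown fat (upper row) and 5 of iWAT (lower row), with a point for each sample, a line at the group mean and the distance from the start site above each panel. At the upstream brown fat peak the AKO samples lie at 239 to 552 and the flox samples at 90.4 to 181.

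In iWAT, none of 28 member peaks and none of all 39558 peaks (0.0%) was called by limma, and DESeq2 and edgeR called none of the 28, where DESeq2 called 0.506% of all peaks as higher and 0.609% as lower and edgeR called 4.67%. By unadjusted limma p under 0.05, 3 of the 28 were higher and 1 lower in AKO, where 7.61% and 7.42% of all peaks were. Unadjusted p under 0.05 was reached by 5 in DESeq2, where 12.3% of all peaks reached it, and by 6 in edgeR, where 17.5% did. The median log2 fold change was -0.10, beside -0.00089 over all peaks, and 15 of the 28 were negative, where 50.1% of all peaks were. In 2 member peaks every AKO aliquot lay above every flox aliquot and in 2 below (7.14% each, against 10.6% and 10.3% of all peaks).

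The 3 higher peaks in iWAT were also peaks of Tbx18. The narrow peak over exon 8 held 7.13, 21.1 and 26.7 normalized reads in flox and 41.5, 28.5 and 35.3 in AKO aliquots, which do not overlap (1.06 ± 0.43, limma adjusted p = 0.309). The upstream pair held 29.9, 42.2 and 27.5 against 58.8, 39.96 and 43.8 (0.51 ± 0.22, limma adjusted p = 0.330) and 7.13, 27.8 and 17.2 against 25.4, 38.8 and 35.3 (1.05 ± 0.43, limma adjusted p = 0.312), with aliquots that overlap. At the start peak, 208, 229 and 213 in flox stood below 292, 235 and 248 in AKO (0.25 ± 0.14, limma adjusted p = 0.451). The site 227 kb downstream held 44.2, 48.9 and 48.2 in flox and 32.3, 41.1 and 40.6 in AKO aliquots, every one lower (-0.31 ± 0.15, limma adjusted p = 0.376).

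The one lower iWAT peak by unadjusted p was the Lhx8 peak of 25 bp, which also had the lowest log2 fold change and the smallest adjusted p of the 28, with 9.27, 4.45 and 5.16 normalized reads in flox and 2.31, 0 and 0 in AKO aliquots (-2.23 ± 0.48, limma adjusted p = 0.151), a difference of a few reads. The strongest Lhx8 site, at 32.4 kb, held 40.6, 31.1 and 50.8 against 31.1, 65.1 and 43.8, with overlap (0.15 ± 0.29). The Tbx15 start peak held 187, 228 and 182 in flox and 212, 180 and 173 in AKO aliquots (-0.08 ± 0.15), and that of Shox2 96.2, 116 and 110 against 115, 171 and 140 (0.39 ± 0.18, limma adjusted p = 0.362). Both overlap. The Tbx15 peak with the smallest p, 39.0 kb into intron 1, overlapped too, at 32.1, 38.9 and 26.7 against 32.3, 26.3 and 27.8 (-0.16 ± 0.17). The En1 distal site held 169, 115 and 156 in flox and 99.1, 114 and 121 in AKO aliquots, which overlap (-0.38 ± 0.18, limma adjusted p = 0.384), and the En1 start 74.1, 78.9 and 61.1 against 73.8, 74.2 and 71.6 (0.04 ± 0.14). The weaker iWAT peak that also overlaps the BAT start peak of En1 had a log2 fold change of -0.49, with aliquots that overlap. At the distant Zic sites, flox and AKO aliquots overlapped, at 45.6, 38.9 and 57.7 against 31.1, 34.3 and 50.3 for the Zic1 site and 98.4, 68.9 and 116 against 104, 46.8 and 85.5 for the Zic4 site. The iWAT peak 279 kb downstream of Zic1 was spread widely in both genotypes, at 32.1, 50.03 and 61.1 against 70.3, 37.7 and 21.4 (-0.25 ± 0.42). The strongest Tbx1 peak held 87.0, 113 and 128 in flox and 115, 94.8 and 84.5 in AKO (-0.15 ± 0.19), and the one 12.5 kb downstream, with the smallest p of the gene, 42.1, 53.4 and 31.8 against 54.2, 58.2 and 50.3 (0.37 ± 0.20, limma adjusted p = 0.423). Both overlap between the genotypes.

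Summed over all peaks of a gene, the mean of AKO over that of flox in BAT ranged from 0.93 for Zic1 to 1.53 for Pax3. The Tbx15 sum was 473, 432 and 514 normalized reads in flox and 516, 616 and 541 in AKO, without overlap (ratio 1.18, exact permutation p = 0.1, the smallest that 3 against 3 allow). The Tbx18 sum was 958, 980 and 1304 against 1283, 2038 and 1147, with overlap (ratio 1.38). In iWAT the ratios ranged from 0.83 for Zic4 to 1.21 for Shox2. There the Tbx18 sum was 421, 503 and 493 in flox and 576, 542 and 537 in AKO, without overlap (ratio 1.17, exact permutation p = 0.1). Adjusted over the genes tested in a tissue, no exact permutation p was below 0.54 in BAT or 0.8 in iWAT.

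A list of 37 other patterning factor genes, among them Twist, Irx, Meox and further T-box genes, was described for comparison. In BAT, 149 peaks of 37 genes had a median log2 fold change of 0.04, and limma, DESeq2 and edgeR called none, with 15, 8 and 12 of 149 at an unadjusted p under 0.05, where 9.05%, 5.99% and 9.67% of all peaks were. By unadjusted limma p under 0.05, 9 were higher and 6 lower in AKO, where 3.46% and 5.59% of all peaks were. In 29 of the 149, every AKO sample lay above every flox sample (19.5%, against 8.77% of all peaks), while in 6 every one lay below (4.03%, against 8.84%). The smallest p values belonged to a peak in Irx1, with 15.2, 17.7 and 19.4 in flox and 36.1, 42.5 and 40.3 in AKO (0.96 ± 0.18, limma adjusted p = 0.417), a peak assigned to Irx3 within an intron of Fto, with 112, 112 and 55.6 in flox and 155, 71.5 and 139 in AKO (1.16 ± 0.24, limma adjusted p = 0.431) and a peak 134 kb upstream of Meox2, with 75.2, 66.5 and 85.4 in flox and 40.2, 36.7 and 32.6 in AKO (-1.09 ± 0.21, limma adjusted p = 0.417). Without the PC1 covariate the list's median was 0.25, beside -0.01 over all peaks. DESeq2 then called 3 of the list's peaks, among them peaks at Tbx4 and Pax9, all higher in AKO and none called once AKO replicate 2 was left out. Of all BAT peaks, DESeq2 without the covariate called 0.512% as higher and 0.516% as lower. With AKO replicate 2 left out, these shares were 0.029% and 0.272%.

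In iWAT, 87 peaks of 30 of the 37 genes had a median log2 fold change of 0.13, and limma called none. By unadjusted limma p under 0.05, 14 were higher and 4 lower in AKO, where 7.61% and 7.42% of all peaks were. Every AKO aliquot was above every flox aliquot in 18 of the 87 (20.7%, against 10.6% of all peaks) and below in 6 (6.90%, against 10.3%). DESeq2 and edgeR each called 1 of the 87, where DESeq2 called 0.506% of all peaks as higher and 0.609% as lower and edgeR 4.67%. The called site was assigned to Twist2 from 166 kb downstream, with 67.0, 63.4 and 65.4 normalized reads in flox and 108, 122 and 89.8 in AKO (0.71 ± 0.21, DESeq2 adjusted p = 0.0946, edgeR adjusted p = 0.0296). The smallest limma p values were those of peaks near Meox1 (-0.67 ± 0.14), Pax9 (0.97 ± 0.21) and Irx2 (0.66 ± 0.14), at adjusted p = 0.151 in each.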

How the data were processed

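ATAC-seq was made from 12 tissue samples, 3 for each genotype and tissue. Per the labels and the study's methods, the authors ran 2 transposase reactions a sample, aligned reads of 38 bp to mm10 with BWA 0.7.17-r1188, removed duplicates with Picard 2.8.14 and kept autosomal reads. They called broad peaks with MACS2 2.1.1.20160309 and kept peaks found in at least 2 of 3 replicates. The deposited signal values are normalized reads per peak, which the authors divided by DESeq2 1.20.0 size factors, separately for each tissue. Their own log2 fold changes, standard errors, test statistics and p-values were not used, and 0 columns of per-sample values were left unmapped. The peak tables assign each peak to a gene, and distances are measured from the annotated start to the middle of the peak.

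Whole reads were recovered from the normalized reads in 100% of values, within 0.0001. Fold changes come from limma 3.58.1 on log2(normalized reads + 1), fitted over all peaks of a table with Benjamini-Hochberg adjustment, a call being an adjusted p under 0.1. They understate changes of weak peaks. DESeq2 1.42.0 and edgeR 4.0.16 on the recovered reads were alternatives, beside another scaling, a filter at 10 reads, GC correction in 20 bins, a replicate block, distance and signal limits, and leaving out each sample. The fits were tested on simulated data. Same-numbered samples did not pair the genotypes (correlations of 0.494, 0.063 and -0.236 in BAT and -0.057 to -0.039 in iWAT). Gene sums were compared by the two-sided exact permutation test. Peaks were shared between tissues if they overlapped by 1 bp. Gene models were those of GENCODE on GRCm38, with sequences from GRCm38.p6 (RefSeq). For each gene and tissue, the text names the peak with the highest flox mean, the one nearest a start within 1000 bp and the one with the smallest p, plus any called peak, except for 1 peak of the comparison list that is not reported here. Sequenced depth limits precision to counting error and the spread of 3 samples. The genes, lists and rules were chosen with earlier results of these data known.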

Additional observations from a re-analysis of the deposited data

How the results depend on the processing

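Beside the main fits, which called none of the 40 and 28 member peaks, DESeq2 without the PC1 covariate called 2 in brown fat, and left-out samples gave 0 to 1, the 1 being this fit without AKO replicate 2. Other settings called 0. For the context list in brown fat, DESeq2 without PC1 called 3 and left-out samples gave 0 to 1. In iWAT, DESeq2 and edgeR called 1. The members' median log2 fold change in brown fat changed sign with the setting: it was -0.20 under GC correction with the replicate block and -0.15 under the replicate block alone, which called 0 member peaks in both tissues, but 0.08 without PC1, 0.06 within 50 kb of a start and -0.09 to 0.10 with left-out samples, the highest without flox replicate 3. The numbers do not pair the samples. In iWAT the median was -0.10 with that block, -0.25 with a PC1 covariate and 0.044 within 50 kb of a start, and left-out aliquots gave -0.13 to 0.0075, with -0.12 without AKO replicate 1, -0.0068 (limma) and -0.011 (DESeq2) without AKO replicate 3. Brown fat peaks lower in every AKO sample were 4, but 2 when scaled by total reads and 9 without AKO replicate 2, where 12.9% of all peaks were, and those in iWAT 0 within 50 kb. Limits on distance and signal kept 16 and 10 of the 28 iWAT peaks. Signs changed at peaks with small differences. Under GC correction the log2 fold change became 0.10 at the Lhx8 intron 6 peak in brown fat (0.068 with the block, -0.080 to 0.080 with left-out samples in limma, as in the ranges that follow), -0.060 at the Shox2 start (-0.10 to 0.34) and -0.0025 at the iWAT En1 start, with and without the block (-0.063 to 0.12). With left-out samples in brown fat it was -0.023 to 0.31 at Pax3 (-0.092 with GC and block), -0.26 to 0.13 at the Tbx1 peak upstream and -0.42 to 0.0017 at the Zic1 start. At the Tbx18 start in brown fat it was -0.065 with the block and -0.13 with GC and block. In iWAT it was -0.11 to 0.41 at the Lhx8 site at 32.4 kb, -0.16 to 0.025 at the Tbx15 start, -0.68 to 0.16 at the Zic1 site at 279 kb and, at the Zic4 site, -0.54 to 0.028. The PC1 covariate in iWAT follows the genotype (scores -41.4 to -30.9 in flox, 29.4 to 37.8 in AKO) and gave 1.496 at the En1 distal site, -0.45 at the Shox2 start, -5.68 at Tbx18 exon 8, -0.39 at the Tbx18 start, 1.37 at the Zic1 site at 475 kb and 0.77 at the Zic4 site. Apart from that covariate, the cause of these shifts was not tested.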
